A study of Caenorhabditis elegans with 12 samples.

Results

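The 10 genes described here encode the core of insulin signalling in Caenorhabditis elegans, from the insulin receptor DAF-2 to the transcription factor DAF-16. They were taken as the rows of the deposited count table whose WormBase identifier maps to daf-2, ist-1, age-1, aap-1, daf-18, pdk-1, akt-1, akt-2, sgk-1 or daf-16, which makes 10 of the 46934 genes in the table. The rule itself names the genes and uses no measured value, but it was written with earlier results of these data known. All 10 had enough counts to be tested, among 15908 genes tested in all.

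RNA was sequenced from whole larvae held for 48 h in first-stage (L1) arrest, a halt of development on hatching in the absence of food. Eggs were obtained with hypochlorite and kept in M9 buffer, in every strain. N2 is the wild type, HBR2340 carries flp-11(syb1445) and PHX2193 carries flp-11(syb2193), with 4 biological replicates of each strain, A to D. Peptides made from flp-11 belong to the FMRFamide-like family and are released by RIS, a neuron that is active during sleep. What either allele does to the gene is left unstated in the labels. The labels name no other allele, and do not say whether either strain comes from several independent lines.

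Insulin-like peptides bind DAF-2, a receptor tyrosine kinase, which activates the lipid kinase made of AGE-1 and AAP-1. The lipid that AGE-1 produces recruits PDK-1 and the Akt kinases, and phosphorylation by the Akt kinases keeps DAF-16 out of the nucleus. When food is absent this signalling is low, and DAF-16 enters the nucleus, where it is needed for larvae to arrest and to survive starvation. The counts measure the RNA of these genes, not the activity of the proteins.

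Total gene counts ranged from 23068345 to 34832403 per library. Levels are CPM, the count of a gene divided by the library's total and rescaled, after scaling with edgeR's TMM factors. The labelled gene flp-11 had 206 to 367 CPM in N2. It was lower in both other strains, with 108 to 142 CPM in HBR2340 and with 19.3 to 23.2 CPM in PHX2193. The library N2 B stood apart from the other N2 libraries. Its TMM factor was 0.717, against 0.945 to 1.18 in all other libraries, and a lower factor gives higher CPM. In N2 B, 19.7% of the tested genes deviated over 2-fold from the N2 mean without it, against 3.87% to 7.04% in N2 A, C and D and 0.251% to 3.15% in the libraries of the other strains. Counts of called genes are therefore also given without N2 B. It was singled out by its values in these data, so p-values without it are not independent of that choice. The larvae were sequenced whole, so fewer cells of a type and less RNA per cell cannot be told apart.

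Levels of different genes were compared per kilobase of exon. In N2, daf-16 had the highest mean of the 10, at 94.5 ± 16 CPM per kb (SD, n = 4), followed by daf-2 at 78.3 ± 14.6, akt-1 at 70.2 ± 6.33, ist-1 at 65.4 ± 50.9 and akt-2 at 54 ± 27.3 CPM per kb. The ranges of neighbours within these first 5 overlapped. The other 5 were lower, with sgk-1 at 27.2 ± 5.19, aap-1 at 18.6 ± 2.20, daf-18 at 11.6 ± 2.80, age-1 at 10.9 ± 2.37 and pdk-1 at 10.8 ± 3.77 CPM per kb. The ranges of akt-2 and sgk-1, of sgk-1 and aap-1 and of aap-1 and daf-18 did not overlap, whereas daf-18, age-1 and pdk-1 overlapped with their neighbours. The gene for the transcription factor at the end of the pathway thus had several times the RNA per kilobase of the lipid kinase subunits. The place of pdk-1 differed between strains. It was last of 10 in N2 and PHX2193, at 7.35 ± 1.42 CPM per kb in the latter, and 8th in HBR2340, at 18.9 ± 1.13 CPM per kb.

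**Figure D1:**
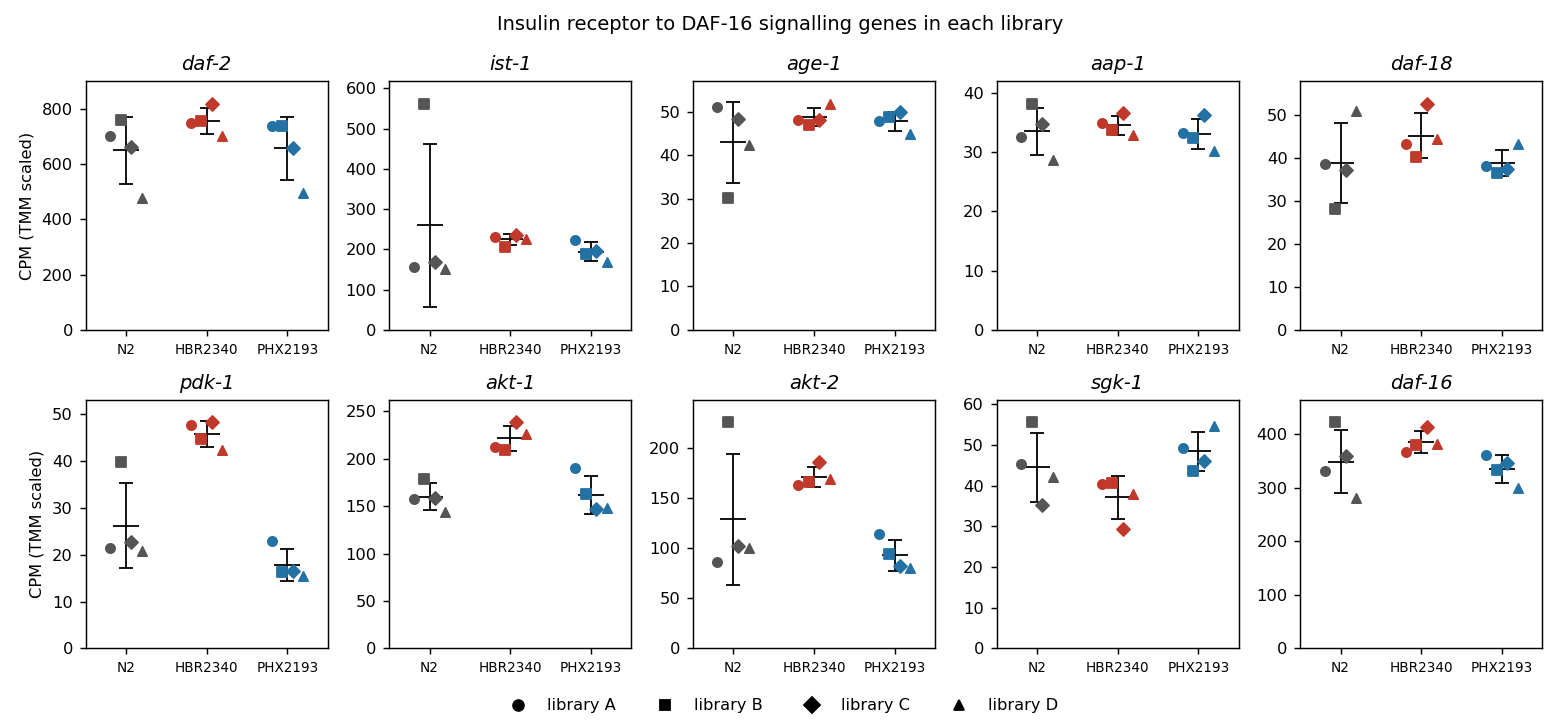
Level of each of the 10 genes (vertical axis, CPM with TMM scaling, from 0) in the 4 libraries of N2, HBR2340 and PHX2193 (horizontal axis), with the marker shape giving the replicate and the lines the mean ± SD. The 4 HBR2340 libraries lie above all other libraries for pdk-1 and akt-1, and N2 B lies far above the other N2 libraries for ist-1, akt-2 and pdk-1.

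The receptor gene daf-2 (WBGene00000898, WBcel235 chromosome III, 2994514 to 3040846, minus strand) did not differ between strains beyond the spread of its libraries. Its levels were 702, 759, 659.9 and 478 CPM in N2 A to D, 749, 756, 818 and 701 CPM in HBR2340, and PHX2193 had 736, 737, 658 and 495 CPM. With TMM scaling, library D was the lowest of each strain, and the ranges of all 3 strains overlapped. The log2 fold change was 0.22 ± 0.16 (SE) in HBR2340 against N2, with a 95% interval from −0.13 to 0.57, and 0.01 ± 0.16 in PHX2193 against N2, from −0.34 to 0.36. In PHX2193 against HBR2340 it was −0.20 ± 0.16, from −0.55 to 0.15.

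The gene ist-1 encodes an adaptor related to insulin receptor substrates and lies on chromosome X (WBGene00002163, 7126648 to 7139666, plus strand). It had 155, 562, 168 and 152 CPM in N2, 232, 205, 236 and 227 CPM in HBR2340, and PHX2193 had 224, 188, 196 and 169 CPM. N2 B alone exceeded the HBR2340 libraries, while N2 A, C and D lay below all of them. With N2 B the log2 fold change in HBR2340 against N2 was −0.20 ± 0.36 (adjusted p = 0.803, edgeR quasi-likelihood test). Without N2 B its sign turned, and ist-1 was higher in HBR2340 by 0.49 ± 0.10 on the log2 scale (adjusted p = 0.00517).

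The lipid kinase genes were not called in any of the 3 comparisons. For age-1, the catalytic subunit (WBGene00000090, chromosome II, 11519328 to 11527054, minus strand), the levels were 51.2, 30.1, 48.3 and 42.3 CPM in N2, 48.2, 47.0, 48.1 and 51.8 CPM in HBR2340, and PHX2193 had 47.9, 48.7, 49.8 and 44.8 CPM. N2 B held the lowest age-1 level of the 12 libraries. For aap-1, the regulatory subunit (WBGene00000001, chromosome I, 5107843 to 5110183, plus strand), all 12 libraries lay between 28.7 and 38.1 CPM. Its log2 fold changes had 95% intervals from −0.18 to 0.26 in HBR2340 against N2, from −0.24 to 0.20 in PHX2193 against N2 and from −0.28 to 0.16 in PHX2193 against HBR2340. The standard errors of aap-1 were the smallest of the 10 members in all 3 comparisons. For age-1 the intervals were wider, from −0.11 to 0.48, from −0.14 to 0.45 and from −0.32 to 0.26 in the same order. The annotation places 192 exon bases of age-1 and 136 of aap-1 opposite exons of a gene on the other strand, and the labels do not say whether reads were counted by strand.

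The gene daf-18 (WBGene00000913, chromosome IV, 420011 to 425177, minus strand) encodes a lipid phosphatase that acts against AGE-1. It had 38.5, 28.2, 37.2 and 50.9 CPM in N2, 43.3, 40.3, 52.5 and 44.4 CPM in HBR2340, and PHX2193 had 38, 36.4, 37.4 and 43.2 CPM. The strains overlapped. In HBR2340 against N2 the log2 fold change was 0.22 ± 0.15, and in PHX2193 against N2 it was 0.00 ± 0.15.

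With all 12 libraries, every member called in a comparison was a gene for a protein kinase downstream of the lipid. The gene pdk-1 (WBGene00003965, chromosome X, 1321344 to 1327986, plus strand) encodes the kinase that phosphorylates the Akt kinases. It had 21.4, 39.8, 22.8 and 20.7 CPM in N2, 47.7, 44.6, 48.3 and 42.4 CPM in HBR2340, and PHX2193 had 22.9, 16.4, 16.5 and 15.5 CPM. All 4 HBR2340 libraries were above all 8 others, and N2 B was the closest to them. PHX2193 and N2 overlapped only through PHX2193 A, the highest of its strain.

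The Akt gene akt-1 (WBGene00000102, chromosome V, 10248905 to 10252845, plus strand) was also highest in HBR2340, with smaller differences, while its levels in N2 and PHX2193 were close. Its levels were 158, 179, 159 and 144 CPM in N2, 212, 209, 238 and 226 CPM in HBR2340, and PHX2193 had 189.9, 163, 146 and 148 CPM. The HBR2340 libraries again lay above all others, and N2 and PHX2193 overlapped. The other Akt gene, akt-2 (WBGene00000103, chromosome X, 14147700 to 14152070, plus strand), had 86.3, 226, 102 and 100.3 CPM in N2, 163, 166, 186 and 169 CPM in HBR2340, and PHX2193 had 114, 94.2, 81.9 and 80.7 CPM. N2 B had the highest akt-2 level of all 12 libraries, and without it HBR2340 lay above both other strains.

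The gene sgk-1 (WBGene00004789, chromosome X, 16254842 to 16262122, minus strand) encodes a kinase related to Akt that also acts downstream of PDK-1. It had 45.3, 55.6, 35.2 and 42.1 CPM in N2, 40.5, 40.6, 29.4 and 38 CPM in HBR2340, and PHX2193 had 49.3, 43.7, 46.2 and 54.6 CPM. HBR2340 lay below PHX2193 without overlap, the opposite order to the other kinase genes, and both overlapped with N2.

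The gene daf-16 (WBGene00000912, chromosome I, 10750498 to 10776703, plus strand) encodes the FOXO transcription factor on which the pathway acts. It had 330.4, 422, 359 and 282 CPM in N2, 367, 379.6, 414 and 381 CPM in HBR2340, and PHX2193 had 361, 332, 346 and 299.6 CPM. HBR2340 lay above PHX2193 without overlap. N2 overlapped with PHX2193, and with HBR2340 only through N2 B, while N2 A, C and D lay below all HBR2340 libraries. Without N2 B, daf-16 was at 0.24 ± 0.10 on the log2 scale in HBR2340 against N2 (adjusted p = 0.129, edgeR). Its 11 annotated transcripts were counted together, so isoforms of daf-16 were not separated.

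In HBR2340 against N2, pdk-1 and akt-1 rose and no member fell, with the other 8 not called. Genes counted as called when their Benjamini-Hochberg adjusted p, taken over the 15908 tested genes, was under 0.05, and 7.37% of these were called in this comparison, 3.34% higher and 4.03% lower. The log2 fold change of pdk-1 was 0.81 ± 0.20 (adjusted p = 0.0276, edgeR quasi-likelihood test), a 1.75-fold rise with a 95% interval from 1.3 to 2.36. For akt-1 it was 0.47 ± 0.11 (adjusted p = 0.0254), a 1.38-fold rise from 1.17 to 1.64. Those were also the 2 members without overlap between the strains, against 13.8% of all tested genes. The median log2 fold change of the 10 members was 0.20, and that of all tested genes was −0.04.

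Both calls in HBR2340 against N2 lay close to the threshold. Leaving out each library in turn kept pdk-1 called in 5 of 12 fits and akt-1 in 6 of 12. The call of pdk-1 was lost without N2 A, C or D or any 1 of the HBR2340 libraries, with adjusted p from 0.0601 to 0.0851 and log2 fold changes from 0.70 to 0.82. The call of akt-1 was lost without N2 A, C or D or without HBR2340 B, C or D, with adjusted p from 0.0508 to 0.0791 and log2 fold changes from 0.41 to 0.48. Neither was called when the 8 libraries of these 2 strains were fitted alone, at adjusted p = 0.0670 for pdk-1 and 0.0574 for akt-1 (edgeR). With no filter on low counts akt-1 was not called (adjusted p = 0.0550).

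Without N2 B, 4 members were higher in HBR2340 and none lower, where 17.7% of all genes tested were called. They were pdk-1 at 1.06 ± 0.12 on the log2 scale (adjusted p = 0.000139), akt-2 at 0.81 ± 0.12 (adjusted p = 0.000704), akt-1 at 0.51 ± 0.10 (adjusted p = 0.00411) and ist-1 as given above, all by edgeR's quasi-likelihood test. N2 B was the highest N2 library for each of these 4 genes. Leaving it out thus widens their differences by construction, and these adjusted p-values are descriptions. With N2 B, akt-2 stood at 0.41 ± 0.25 (adjusted p = 0.405). The remaining members, daf-2, age-1, aap-1, daf-18, sgk-1 and daf-16, were not called in HBR2340 against N2 either with or without N2 B. The log2 fold change of sgk-1 was −0.26 ± 0.15 with it.

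In PHX2193 against N2 no member was called by edgeR, against 0.365% of all tested genes, 0.163% higher and 0.201% lower. DESeq2, limma-voom and every other setting tried also called 0 members. At an unadjusted p under 0.05, 1 of the 10 members passed, against 11.6% of all tested genes. It was pdk-1, with a log2 fold change of −0.55 ± 0.20 (unadjusted p = 0.0161, adjusted p = 0.295, edgeR). Next came akt-2 at −0.47 ± 0.26 and ist-1 at −0.42 ± 0.36, and the other 7 lay between −0.06 and 0.15. No member separated the strains without overlap, against 6.03% of tested genes. Without N2 B the member count called remained 0, where 1.40% of all tested genes were called, and pdk-1 stood at −0.29 and akt-2 at −0.06. This comparison and the one before share the N2 libraries.

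With all 12 libraries, more members were called between HBR2340 and PHX2193 than in either comparison with N2, an order that the calls over all tested genes shared. For the members it was not seen without N2 B. With N2 B, pdk-1, akt-1 and akt-2 were lower in PHX2193 than in HBR2340 and no member was higher, with 7 not called. Of all tested genes 19.5% were called, 10.1% higher and 9.39% lower. The log2 fold change of pdk-1 was −1.36 ± 0.20 (adjusted p = 0.000527, edgeR quasi-likelihood test), which makes it 2.57-fold lower in PHX2193, and it was called in all 12 fits that left out 1 library. For akt-1 it was −0.45 ± 0.11 (adjusted p = 0.0139), with the call lost without PHX2193 C (adjusted p = 0.0504). For akt-2 it was −0.88 ± 0.26 (adjusted p = 0.0287).

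The call of akt-2 was the least stable of these. It was lost without any 1 of the HBR2340 libraries or without PHX2193 B, C or D, with adjusted p from 0.0550 to 0.0882, although the log2 fold change stayed between −1.0 and −0.81. With no filter on low counts it was also lost (adjusted p = 0.0593). The spread of a gene is estimated over all strains, so N2 B contributes to it here too. Without N2 B the difference of akt-2 had an adjusted p of 7e-05 by edgeR.

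The kinase gene sgk-1 was 0.38 ± 0.15 higher in PHX2193 than in HBR2340 on the log2 scale and missed the threshold (adjusted p = 0.0866, edgeR). It passed without N2 B (adjusted p = 0.0217), with upper quartile factors (0.0380) and in a fit of the 8 libraries alone (0.0177), so that 3 members were then lower and 1 higher without N2 B, where 32.9% of tested genes were called. The strains did not overlap for 5 members (pdk-1, akt-1, akt-2, sgk-1 and daf-16), against 35.5% of tested genes. The transcription factor gene daf-16 was not called, at −0.20 ± 0.13 (adjusted p = 0.308).

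**Figure D2:**
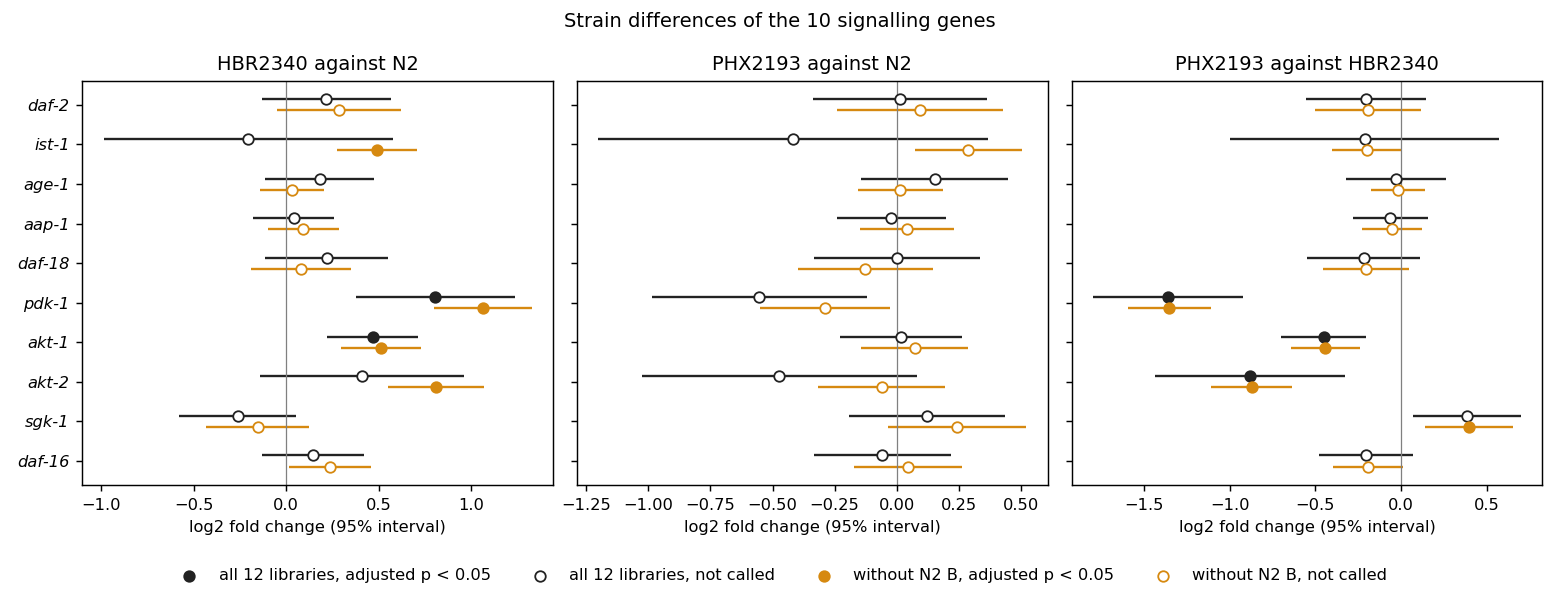
Log2 fold change with its 95% interval (horizontal axis) of the 10 genes (vertical axis) in the 3 strain comparisons, from all 12 libraries (black) and without N2 B (orange), with filled points for adjusted p under 0.05. The intervals of ist-1, akt-2 and pdk-1 narrow when N2 B is left out, and pdk-1 is the member farthest from 0 in PHX2193 against HBR2340.

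Ratios of 2 members within a library do not depend on the scaling between libraries. The ratio of akt-1 to akt-2, in counts per kilobase, was 1.91, 0.83, 1.62 and 1.5 in N2, 1.36, 1.32, 1.34 and 1.39 in HBR2340, and 1.74, 1.81, 1.87 and 1.92 in PHX2193. HBR2340 was thus uniform and lower than PHX2193 without overlap, and in N2 B alone akt-2 exceeded akt-1. The log2 ratio differed by 0.44 between PHX2193 and HBR2340 (0.87 ± 0.06 against 0.44 ± 0.03, SD, n = 4 each). The two-sided exact permutation p was 0.0286, the smallest that 4 against 4 allows, and 0.257 after adjustment over 9 comparisons, so it did not pass.

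The ratio of daf-18 to age-1, the phosphatase and the lipid kinase with opposite actions, had a range of 0.888 to 1.42 in N2, 1.01 to 1.29 in HBR2340 and 0.882 to 1.14 in PHX2193. That of daf-2 to daf-16 had a range of 0.754 to 0.944 in N2, 0.817 to 0.907 in HBR2340 and 0.734 to 0.985 in PHX2193. Both overlapped in all 3 strains, with exact permutation p from 0.143 to 0.914 before adjustment.

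**Figure D3:**
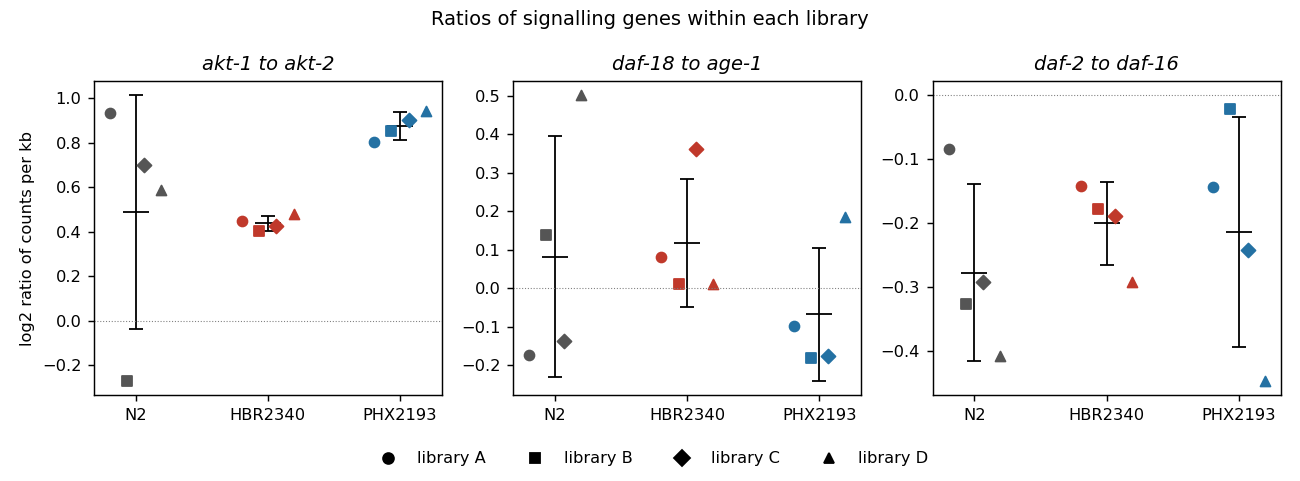
Log2 ratio of 2 genes in counts per kb (vertical axis) in each library of the 3 strains, with the mean ± SD as lines. For akt-1 to akt-2 the 4 HBR2340 libraries lie together, below the 4 PHX2193 libraries, and N2 B lies below 0.

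The genes for insulin-like ligands of DAF-2 moved in both directions. Of 40 listed, 24 were tested. In HBR2340 against N2, 1 was higher and 1 lower, near the 7.37% called of all tested genes. The ligand gene ins-10 went from 14.5 ± 3.14 CPM in N2 to 32.8 ± 3.60 CPM in HBR2340, a log2 fold change of 1.18 ± 0.16. The gene daf-28, whose peptide promotes growth through DAF-2, went from 7.91 ± 3.34 to 3.89 ± 0.44 CPM, a log2 fold change of −1.03 ± 0.27 (adjusted p = 0.0382, edgeR). In PHX2193 against N2, where 0.365% of all tested genes were called, ins-24 alone was called, at −1.67 ± 0.30 (adjusted p = 0.0353, edgeR).

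Against HBR2340, PHX2193 had 4 ligand genes higher and 5 lower of 24, where 19.5% of all tested genes were called. The 4 with the smallest adjusted p were ins-10 at −1.43 ± 0.16, ins-26 at −1.93 ± 0.30, ins-3 at 3.11 ± 0.49 and daf-28 at 1.45 ± 0.27 on the log2 scale. The mean of ins-3 was 127 ± 111 CPM in PHX2193 and 14.7 ± 1.3 CPM in HBR2340, so its PHX2193 libraries varied by about as much as their mean. The 2 called genes of HBR2340 against N2 became 6 without N2 B, with 2 higher and 4 lower, where 17.7% of all tested genes were called. In PHX2193 against HBR2340, 8 were then higher and 6 lower, where 32.9% were called.

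Among 30 modulators of the pathway and cofactors of DAF-16, 1 was higher in HBR2340 than in N2, where 7.37% of all tested genes were called, and none was called in PHX2193 against N2. It was eak-7, which in genetic tests acts with akt-1 to restrain DAF-16, at 0.36 ± 0.09 on the log2 scale (adjusted p = 0.0325, edgeR). In PHX2193 against N2 the smallest p-values were those of sir-2.1 (adjusted p = 0.338) and pqm-1 (adjusted p = 0.410). Between PHX2193 and HBR2340, 2 were higher and 3 lower in PHX2193, where 19.5% of all tested genes were called. These shares of the list are below those of all genes. The deacetylase gene sir-2.1 was higher by 0.38 ± 0.08 and pqm-1, a transcription factor gene, by 0.63 ± 0.15, while skn-1, a stress-response factor gene, was at −0.42 ± 0.12 and rle-1, a ubiquitin ligase gene, at −0.40 ± 0.12. Without N2 B the counts were 2 higher in HBR2340 against N2 and none in PHX2193 against N2. In PHX2193 against HBR2340 they were 4 higher and 5 lower. The shares called of all tested genes were then 17.7%, 1.40% and 32.9%.

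Of 22 genes of the TOR branch, a nutrient-sensing kinase pathway that meets insulin signalling, 1 was higher and 1 lower in HBR2340 than in N2, near the 7.37% called of all tested genes. The gene rict-1, Rictor of TOR complex 2 and a regulator of SGK-1, was at 0.49 ± 0.09 (adjusted p = 0.00426), and aak-1, a catalytic subunit of AMP-activated kinase, at −1.0 ± 0.27 (adjusted p = 0.0390, edgeR). None was called in PHX2193 against N2, where ife-2 and sinh-1 had the smallest p-values, with adjusted p of 0.660 and 0.665. Relative to HBR2340, PHX2193 had aak-1 higher by 0.92 ± 0.27 and rict-1 (−0.47 ± 0.09) and sinh-1 (−0.58 ± 0.17) lower, where 19.5% of all tested genes were called. Without N2 B, 4 were higher and 1 lower in HBR2340 against N2, aak-1 was called higher in PHX2193 against N2, and 1 was higher and 6 lower in PHX2193 against HBR2340. All tested genes were then called at 17.7%, 1.40% and 32.9%.

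Genes known to be raised by DAF-16 included larger differences than any of the 10 members showed. Of 17 tested, 4 were higher and 1 lower in HBR2340 than in N2, where 7.37% of all tested genes were called. The superoxide dismutase gene sod-3 went from 2.49 ± 1.43 CPM in N2 to 36.8 ± 5.22 CPM in HBR2340, and sod-5 from 5.19 ± 1.53 to 188 ± 87.2 CPM. The desiccation-protection gene lea-1 was higher by 1.75 ± 0.22 and the metallothionein gene mtl-1 by 1.01 ± 0.17 on the log2 scale. The gene dod-6 was lower, at −0.88 ± 0.22 (adjusted p = 0.0278, edgeR). The other 12 were not called and went in both directions. The median log2 fold change of the 17 was 0.20, against −0.04 for all tested genes. That of daf-16 itself was 0.15 ± 0.13 in the same comparison.

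In PHX2193 against N2 none of the 17 was called, with sod-3 at −1.99 ± 0.40 (adjusted p = 0.0636) and mtl-1 at −0.81 ± 0.17 (adjusted p = 0.0741, edgeR). In PHX2193 against HBR2340, 1 was higher and 7 were lower, where 19.5% of all tested genes were called, with sod-5 at −6.44 ± 0.44, sod-3 at −5.83 ± 0.42, mtl-1 at −1.82 ± 0.18 and lea-1 at −2.28 ± 0.23. Without N2 B the counts were 7 higher and 1 lower in HBR2340 against N2, 2 lower in PHX2193 against N2, sod-3 and mtl-1, and 2 higher and 9 lower in PHX2193 against HBR2340. All tested genes were then called at 17.7%, 1.40% and 32.9%.

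Of 11 tested genes known to be lowered by DAF-16, none was called in HBR2340 against N2 or in PHX2193 against N2. Of all tested genes, 7.37% were called in the first comparison and 0.365% in the second. Among the 11, the smallest p-values in the first were those of lys-4 (adjusted p = 0.0775) and dod-17 (adjusted p = 0.206, edgeR). In the second they were those of dod-22 (adjusted p = 0.0711) and dod-24 (adjusted p = 0.295, edgeR). The gene dod-23 was called higher in PHX2193 than in HBR2340, where 19.5% of all tested genes were called. It was at 0.880 ± 0.290 CPM against 0.116 ± 0.098 CPM, the latter being about what 3 counts amount to in a library. Without N2 B the counts were 1 higher and 3 lower in HBR2340 against N2 and 1 lower in PHX2193 against N2. In PHX2193 against HBR2340 they were 4 higher and 2 lower. The shares called of all tested genes were then 17.7%, 1.40% and 32.9%.

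Markers of body wall muscle were highest in HBR2340, where all members except ist-1 and sgk-1 also had their highest mean. The summed level of 15 such markers, none of them at 0 in any library, was 11194, 15817, 11670 and 9323 CPM in N2, 21841, 20917, 22362 and 21096 CPM in HBR2340, and PHX2193 had 10087, 8791, 7595 and 5907 CPM. HBR2340 was highest and, with TMM scaling, N2 B was the N2 library closest to it, as for pdk-1. The low TMM factor of N2 B, 0.717, raises its muscle sum and its levels of all members alike. With TMM scaling, library D had the lowest muscle sum of N2 and of PHX2193, and also the lowest daf-2 and daf-16 of both. The TMM factors of N2 D and PHX2193 D, 1.14 and 1.18, were the highest of all libraries, and a higher factor gives lower CPM. As shares of total counts, D was not the lowest for daf-16 in either strain, nor for daf-2 in N2. The order of the strains for sgk-1 was opposite to that of the muscle sum, with its lowest mean in HBR2340. In HBR2340 against N2, 11 of the 15 were called higher and none lower, where 3.34% of all tested genes were called higher. In PHX2193 against N2 none was called by edgeR (0.365% of all tested genes). In PHX2193 against HBR2340, 13 were lower, where 9.39% of all tested genes were called lower. Without N2 B, 12 were higher in HBR2340 than in N2 and 1 was lower in PHX2193 than in N2. In PHX2193, 14 were then lower than in HBR2340. Of all tested genes, 17.7%, 1.40% and 32.9% were then called, in either direction. Deviations of log2 CPM from the strain mean followed those of the muscle sum at 0.89 for daf-2 and 0.87 for daf-16 (Pearson, 12 libraries). They did so at 0.85 for pdk-1 and akt-1, 0.78 for akt-2, 0.74 for ist-1 and 0.72 for aap-1. For sgk-1 the value was 0.12, for age-1 −0.39 and for daf-18 −0.72. Without N2 B, age-1 was at 0.52 and sgk-1 at −0.40. Both levels share the scaling of a library. The part of muscle RNA in the differences of the members was not tested.

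Fewer markers of each other tissue were called, though their lists are shorter. In HBR2340 against N2, no marker of neurons (12 tested), germ cells (5) or embryo and oocyte (6) was called by edgeR. In the same comparison 1 marker was lower in each of intestine (9), epidermis (7) and pharynx (8), where 4.03% of all tested genes were called lower. Summed neuron markers were between 4374 and 6781 CPM in N2, between 5852 and 6850 CPM in HBR2340 and between 4561 and 6476 CPM in PHX2193. For PHX2193 against HBR2340, 1 neuron marker was lower, where 9.39% of all tested genes were called lower. There 1 marker of intestine, 1 of epidermis and 2 of pharynx were higher, where 10.1% of all tested genes were called higher. The summed pharynx markers, however, were 4397 to 7322 CPM in PHX2193, below the 8527 to 9899 CPM of HBR2340, and 4368 to 10108 CPM in N2. Without N2 B, 4 pharynx markers were higher and 2 lower in HBR2340 than in N2, and 3 were higher and 3 lower in PHX2193 than in HBR2340. Then also, 3 intestine markers and 1 epidermis marker were lower in HBR2340 than in N2, and 1 neuron marker was higher and 1 lower. In PHX2193 against HBR2340, 3 intestine markers and 1 epidermis marker were then higher, and 1 neuron marker was higher and 3 lower. Of all tested genes, 17.7% were then called in HBR2340 against N2 and 32.9% in PHX2193 against HBR2340.

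**Figure D4:**
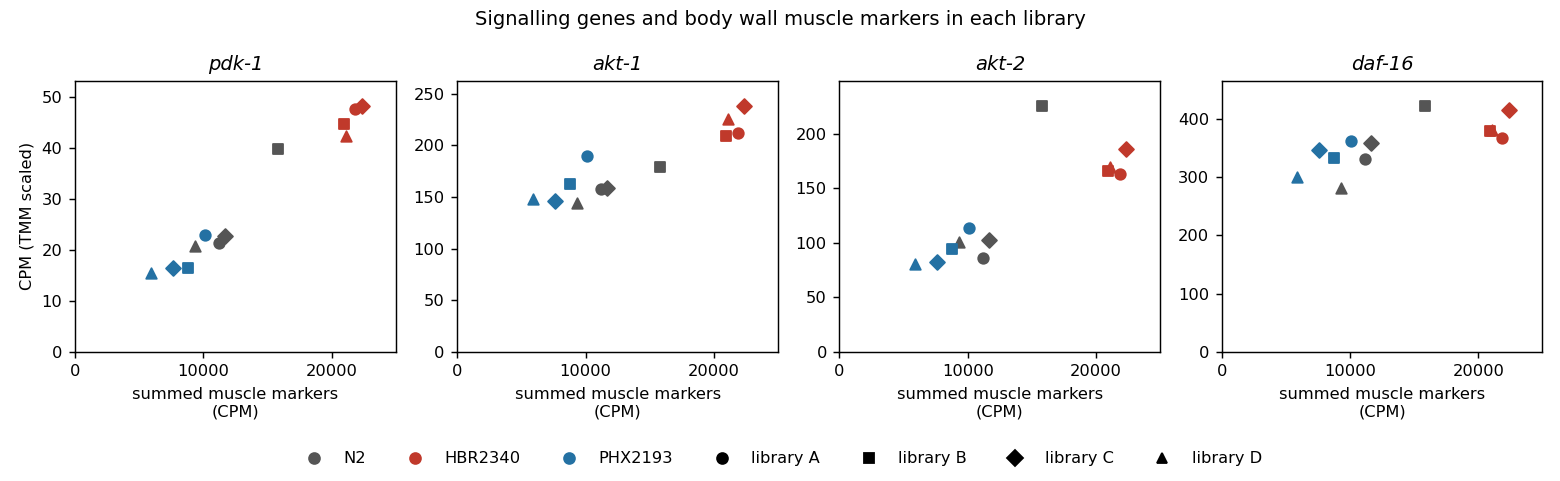
Level of pdk-1, akt-1, akt-2 and daf-16 (vertical axis, CPM) against the summed level of 15 body wall muscle markers (horizontal axis, CPM) in each library, coloured by strain. The 4 HBR2340 libraries lie at the right, at 20917 CPM of muscle markers or more, and N2 B lies between them and the rest.

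The genes whose log2 CPM followed a member most closely over the 12 libraries were taken from 11847 genes with a mean log2 CPM of at least 1. The strains differ in many genes, so these likenesses include the strain differences and are descriptions. For pdk-1 they were act-4, an actin gene (Pearson r = 0.99), Y52B11A.12 (0.99) and fkb-2 (0.98). For akt-1 they were Y6E2A.4 (0.97), shn-1 (0.96) and aly-3 (0.95), and for akt-2 they were Y119D3B.14, ndx-6 and pgap-3 (each 0.99). For daf-16 they were scc-2 (0.99), tex-2 (0.98) and Y59C2A.3 (0.98), and for daf-2 they were W07E11.1, sop-3 and tat-5 (each 0.97).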

How the data were processed

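The authors deposited raw gene counts, whole numbers for 46934 WormBase identifiers in 12 libraries. Reads were aligned with Bowtie 0.12.2, per the submitters' processing notes, which name the builds WBcel235 and, without its role, the mouse build mm8. Not given in the sources used here: counting program, annotation release, strand setting and treatment of reads with several matches. Symbols (44113 identifiers) were read from a separate list of gene names. Positions and exon lengths were read from Ensembl's WBcel235 annotation, in which 46924 of the identifiers occur.

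The test was run with edgeR 4.0.16 on R 4.3.3 (robust quasi-likelihood fit, TMM factors, 1 term per strain, all 12 libraries). filterByExpr by strain (minimum count 10, minimum total 15) left 15908 genes. Tests were two-sided with Benjamini-Hochberg adjustment, and genes were called under 0.05. The SE is the log2 fold change over the square root of F. Log2 CPM used a prior count of 2. Ratios were compared with exact permutation tests. DESeq2 1.42.0 and limma-voom (limma 3.58.1), other scalings and filters, only the libraries compared, a replicate block and leaving out libraries were alternatives. Only the edgeR fit was tried on simulated counts, with an equal spread for all genes and no deviating library, unlike these data. No 2 libraries of a strain agreed within sampling noise (lowest chi-square per degree of freedom 15.1).

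The named genes are the members, up to 4 called genes per list and comparison with the smallest adjusted p (up to 2 with the smallest p where none was called), and the 3 most similar genes of daf-2, daf-16 and each called member. Members and lists were chosen with earlier results of these data known. The labels call the libraries biological replicates. Intervals cover the spread between them, and the lowest count of any member in any library was 447.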

Additional observations from a re-analysis of the deposited data

Results flagged for a closer look

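In 4 of 39 groups of 4 libraries checked, 1 library lay far from the other 3 of its strain by Dixon's test at the 95% level. Chance gives such a gap in about 1 of 20 groups, but the groups share libraries and some are ratios of the same genes. They are thus not independent, and the 4 cannot be weighed against that rate. Of the 4, 3 are in N2 B, where akt-2 was at 226 CPM against 86.3 to 102 CPM in the other N2 libraries, ist-1 at 562 CPM against 152 to 168 CPM, and pdk-1 at 39.8 CPM against 20.7 to 22.8 CPM. The last was pdk-1 in PHX2193 A, at 22.9 CPM against 15.5 to 16.5 CPM in the other PHX2193 libraries. With TMM scaling, N2 B (factor 0.717) also had the highest muscle marker sum of N2 and PHX2193 A that of PHX2193. The part of that in these levels was not tested.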

How the results depend on the processing

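Of 630 member values (30 member results under 21 alternatives), 562 kept direction and side of the threshold, 25 fell short of it, 6 newly passed it with the same sign and 37 changed sign. Of the latter, 2 also passed the threshold, both of them ist-1 in HBR2340 against N2, in settings that left out N2 B. The cause of these changes was not tested. With no filter, 1 member was called in HBR2340 against N2, and daf-18 was at −0.0066 on the log2 scale in PHX2193 against N2. DESeq2's Wald test called 1856 genes in HBR2340 against N2 and 451 in PHX2193 against N2 (1173 and 58 by edgeR), with daf-2 at −0.01140, daf-18 at −0.0147 and akt-1 at −0.0072 in the latter. DESeq2 size factors gave −0.01144, −0.0141 and −0.0075 for these. Upper quartile factors put aap-1 at 0.014 in PHX2193 against N2 and age-1 at 0.019 in PHX2193 against HBR2340, and limma-voom put ist-1 at 0.029 in HBR2340 against N2. Only the 8 libraries compared gave 0 members and 627 genes in HBR2340 against N2, 3 genes in PHX2193 against N2, with daf-18 at −0.00037, and 5316 genes in PHX2193 against HBR2340.

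Leaving out 1 library at a time gave 0 to 4 members in HBR2340 against N2 and 1 to 4 in PHX2193 against HBR2340, and 661 to 2880, 7 to 228 and 2237 to 5339 genes in HBR2340 against N2, in PHX2193 against N2 and in PHX2193 against HBR2340. In HBR2340 against N2, ist-1 ranged from −0.41 to 0.49 and aap-1 from −0.027 to 0.093. In PHX2193 against N2, daf-2 ranged from −0.11 to 0.11, ist-1 from −0.60 to 0.29, aap-1 from −0.090 to 0.041, daf-18 from −0.13 to 0.16, akt-1 from −0.068 to 0.072 and daf-16 from −0.15 to 0.045. In PHX2193 against HBR2340, age-1 ranged from −0.038 to 0.019. Differences of log2 ratios in HBR2340 against N2 ranged from −0.30 to 0.10 for akt-1 to akt-2 and from −0.050 to 0.17 for daf-18 to age-1. For daf-2 to daf-16 they ranged from −0.00048 to 0.14 in PHX2193 against N2 and from −0.078 to 0.064 in PHX2193 against HBR2340.

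An alternative chosen after seeing the data left out N2 B, N2 D and PHX2193 D together. It called 4 members and 3035 genes in HBR2340 against N2, 131 genes in PHX2193 against N2 and 5565 in PHX2193 against HBR2340. It put ist-1 at 0.48 and age-1 at −0.026 in HBR2340 against N2 and age-1 at 0.0022 in PHX2193 against HBR2340. In PHX2193 against N2 it put ist-1 at 0.33, age-1 at −0.024, aap-1 at 0.012, daf-18 at −0.022, akt-2 at 0.035 and daf-16 at 0.0084.

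The labels do not say that the letters A to D pair libraries. Deviations of same-lettered libraries from their strain means correlated at 0.66 between N2 D and PHX2193 D, and between −0.18 and 0.20 in the other pairs, so that not every pair was over 0.1. With the replicate block, 2, 0 and 3 members were called, as without it, and 1053, 24 and 3063 genes. The lowest count behind any member's level was 447, so no member was near a floor of 3 counts.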
